A study of Mus musculus with 6 samples.

Results

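The genes described here make, inactivate or bind estrogen in mouse cumulus-oocyte complexes: the steroid enzyme genes Cyp17a1, Cyp19a1 and Hsd17b1, the estrogen sulfotransferase gene Sult1e1 and the receptor genes Esr1 and Esr2. These 6 genes were chosen by their role in estrogen action together with the log2 values of the same 6 arrays, so their values are a description and were not tested. Probe sets were taken where the platform's annotation gave 1 of these symbols and no other. Of 18193 genes with such a probe set, 5 are members, with 7 probe sets, 3 of them for Esr1 and 1 for each other gene. Cyp19a1, which encodes aromatase, had no probe set under that rule and was not analysed here.

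A growing follicle makes estradiol with a pair of cell types. Theca cells turn progestogens into androgens with the enzyme of Cyp17a1, and granulosa cells turn androgens into estrogens with aromatase, while the 17β-hydroxysteroid dehydrogenase of Hsd17b1 reduces estrone to the more active estradiol. Sult1e1 adds a sulfate group to estrogens, and the sulfated hormone does not bind the receptors. Esr2 encodes estrogen receptor β, the main receptor of granulosa cells, and Esr1 encodes estrogen receptor α, known in the ovary mostly from theca and stroma. The luteinizing hormone surge, which hCG replaces, is known to end estradiol production in the follicle.

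All complexes came from wild-type immature female mice given equine chorionic gonadotropin (eCG), a hormone that makes follicles grow, for 48 h. A cumulus-oocyte complex is an oocyte with the cumulus granulosa cells that surround it. Of the 3 groups, each with 2 arrays of pooled complexes, 1 received no human chorionic gonadotropin (hCG), and the others were collected 8 h and 16 h after hCG. The sources used here give no strain and no age in days. Per the labels, complexes without hCG were punctured from ovaries and called expanded, and those of both hCG groups came from the oviduct. The word expanded is uncertain for complexes without hCG, where the cumulus expansion genes Ptx3, Tnfaip6 and Has2 were lower than at 8 h. The site given for the 8 h group is uncertain, since ovulation is usually later. If these sites hold, hormone and site of collection cannot be told apart. Nothing in the labels says that the 2 pools of a group came from separate animals, so the spread given here may be technical. Values are log2 intensities, on which a difference of 1 is a doubling, and levels of different genes are not comparable on this scale. A probe set whose mean of all 6 arrays was below 5.62, the 40th percentile, was treated as too dim to test. Of the 7 probe sets, 6 passed that limit, and the third Esr1 probe set did not. Array medians lay between 6.14 and 6.27, and the number of arrays limits the precision of every value.

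All 5 measured genes lay outside the range of the group without hCG in both hCG groups. Sult1e1 was higher at 8 h and 16 h, and the 4 others were lower at both times. In each of the 3 comparisons the arrays of the groups did not overlap for 5 of the 5 genes. Among all 13559 genes tested, the arrays did not overlap for 67.5% at 8 h against no hCG, 61.8% at 16 h against 8 h and 69.1% at 16 h against no hCG. Over all 13559 genes tested, 16.9% were called higher and 20.5% lower at 8 h than without hCG, 11.8% higher and 9.12% lower at 16 h than at 8 h, and 20.8% higher and 20.8% lower at 16 h than without hCG (limma, Benjamini-Hochberg adjusted p under 0.05). Since the members were chosen with these values known, nothing is read from their count beside those shares. In pooled complexes, fewer cells of a type and less RNA per cell cannot be told apart.

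**Figure D1:**
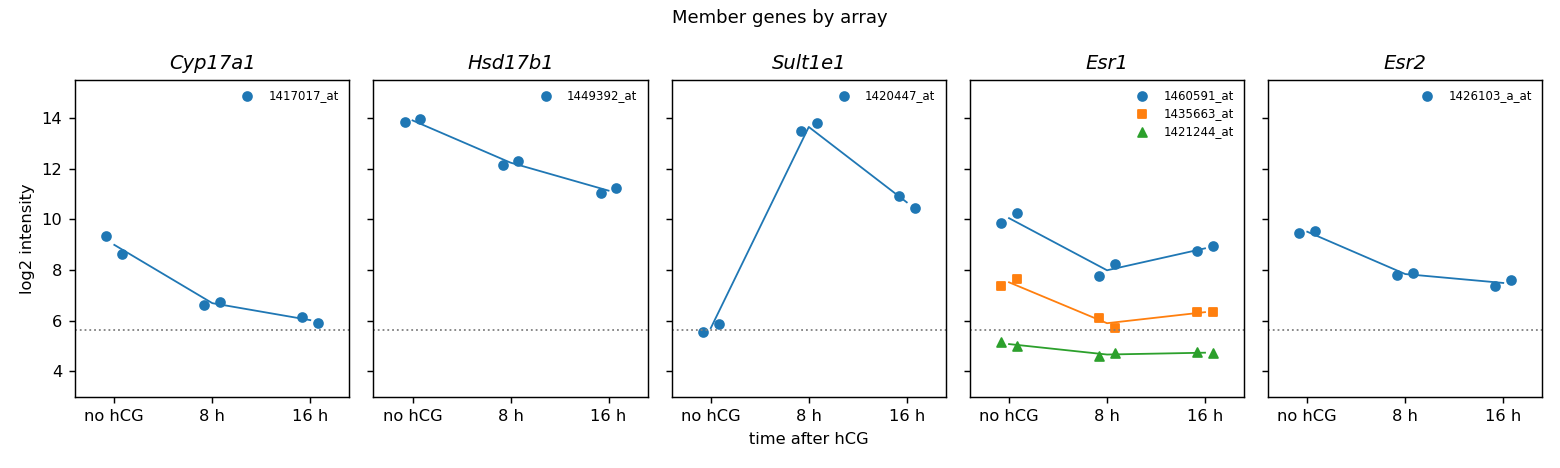
Log2 intensity (y axis) of the 7 probe sets without hCG, at 8 h and at 16 h, with 1 point per array, a line through the means of 2 arrays and a dotted line at the limit for dim probe sets, 5.62. Sult1e1 peaks at 8 h, Cyp17a1, Hsd17b1 and Esr2 descend over both intervals, and the 2 brighter Esr1 probe sets are lowest at 8 h.

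Levels of markers of several cell types also differed between the groups. Of 18 cumulus and granulosa markers, 1 was below the limit for dim probe sets without hCG and 0 were after it, and their mean log2 level ranged from 10.85 to 10.96 without hCG, 10.64 to 10.82 at 8 h and 10.19 to 10.29 at 16 h. At 8 h 3 of them rose and 9 fell, and at 16 h against no hCG 3 were higher and 13 lower. Their median difference at 8 h was −0.58, beside −0.02 over all genes tested. The 3 that rose were Ptx3 (5.98), Tnfaip6 (4.59) and Has2 (3.24), genes of cumulus expansion that enter the mean level, and the largest falls were those of Inhbb (−2.54) and Npr2 (−2.53). Oocyte markers fell in 15 of 15 tested cases at 8 h, and their mean level over 17 named markers went from between 10.37 and 10.51 without hCG to between 8.37 and 8.44 at 8 h and between 7.93 and 8.15 at 16 h. In the later interval 5 of the 15 rose, among them Gdf9 (group means 11.32 and 12.49), and 7 fell. Leukocyte markers rose in 14 of 16 tested cases from 8 h to 16 h, with a mean level over 18 markers of 6.25 to 6.39 at 8 h and 8.06 to 8.11 at 16 h. Of those 18, 5 had a group mean below the limit for dim probe sets without hCG, 5 at 8 h and 2 at 16 h. Some may have been tested only because of their 16 h arrays, so this count is not independent of that limit. Of 5 tested markers of oviduct epithelium, 2 fell at 8 h and 4 rose from 8 h to 16 h. Their mean level over 11 markers was 6.78 to 6.88 without hCG, 6.44 at 8 h on both arrays and 7.47 to 7.56 at 16 h. Of the 11, 4 were below the limit for dim probe sets in all 6 arrays. Of 8 endothelial markers, 4 were below that limit in all 6 arrays. Of the 3 endothelial markers tested 1 rose at 8 h, the 2 erythrocyte markers tested were not called in any comparison, and of 4 markers of ovarian surface epithelium 2 fell at 8 h. The part of these cells in the values of the estrogen genes was not tested.

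**Figure D2:**
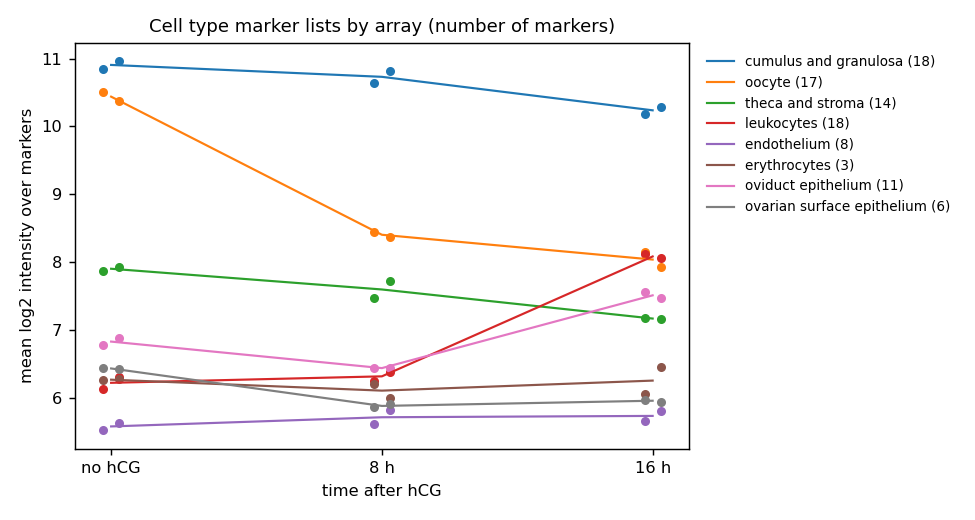
Mean log2 intensity over each list of cell type markers (y axis) without hCG, at 8 h and at 16 h, with 1 point per array, a line through the means of 2 arrays and the number of markers in brackets. The oocyte line descends after hCG and the leukocyte line is higher at 16 h, whereas cumulus and granulosa markers lie between 10.19 and 10.96; only changes within a list are comparable.

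Sult1e1 showed the widest range of the members. Its log2 intensities were 5.55 and 5.87 without hCG, 13.49 and 13.79 at 8 h, and 10.91 and 10.42 at 16 h. The arrays without hCG lay around the limit for dim probe sets, 1 of them below it, whereas both 8 h arrays stood among the brighter values of the table. The difference of group means was 7.93 ± 0.21 (SE of the limma fit, n = 2 per group) at 8 h against no hCG, a measured ratio of 244-fold. The size of every ratio of Sult1e1 against no hCG is uncertain, since the signal over background of that group is unknown. From 8 h to 16 h the difference was −2.97 ± 0.21, or 7.84-fold lower, and at 16 h the measured ratio to the group without hCG was 31.1-fold (4.96 ± 0.21).

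The RefSeq promoter window of Sult1e1 is shown because this gene alone among the members was higher after hCG. It spans 250 bases before to 50 bases after the start site at chr5:87591562-87591861 (GRCm38.p6, minus strand), and the gene lies at chr5:87575968-87591611. The window, 5′ to 3′ on the gene's strand, has matches to 2 of the 5 searched motifs, both within the capitals.
Sult1e1: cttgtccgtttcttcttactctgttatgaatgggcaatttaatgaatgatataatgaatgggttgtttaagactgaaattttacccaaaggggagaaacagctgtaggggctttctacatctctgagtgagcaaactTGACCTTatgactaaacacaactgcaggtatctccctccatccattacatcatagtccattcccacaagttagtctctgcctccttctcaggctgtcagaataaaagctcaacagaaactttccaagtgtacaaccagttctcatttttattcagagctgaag
The capitals mark TGACCTT, the reverse complement of AAGGTCA, letters that the receptors encoded by Nr5a1 and Nr5a2 are known to bind, at bases −113 to −107 from the start site. Of 32851 RefSeq promoter windows of the same length, 4.72% hold AAGGTCA on either strand. The shorter nuclear receptor core AGGTCA lies inside it here and is held by 16.3% of windows. The cAMP response element TGACGTCA (1.79% of windows), its shorter form TGACGT, which lies inside it (7.51%), and TATAAA (13.6%) have no match on either strand of this window. These matches describe letters, and binding was not measured.

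Hsd17b1 was lower at each later time. Its log2 intensities were 13.84 and 13.96 without hCG, 12.16 and 12.30 at 8 h, and 11.02 and 11.24 at 16 h. Each group lay below the one before it, and its arrays differed by less than the gaps between groups. The difference was −1.67 ± 0.16 at 8 h against no hCG (3.17-fold lower) and −1.10 ± 0.16 from 8 h to 16 h (2.15-fold lower). The total from no hCG to 16 h was −2.77 ± 0.16, or 6.82-fold lower. The gene lies at chr11:101077968-101081188 (GRCm38.p6).

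Cyp17a1 had the largest gap between replicates. Its log2 intensities were 9.35 and 8.63 without hCG, 6.63 and 6.75 at 8 h, and 6.15 and 5.90 at 16 h. Both arrays without hCG stood above all 4 later arrays, and the SD without hCG was 0.52 (n = 2), against 0.08 at 8 h and 0.18 at 16 h. The difference at 8 h was −2.30 ± 0.23 (4.92-fold lower), and at 16 h against no hCG −2.97 ± 0.23 (7.82-fold lower). The step from 8 h to 16 h was smaller, −0.67 ± 0.23 (1.59-fold lower). The gene lies at chr19:46667165-46673000.

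Cyp17a1 is known as a theca enzyme, so markers of theca and stroma are given beside it. Of 16 markers listed, 14 had a named probe set, and the theca hormone gene Insl3 and the gonadotropin receptor gene Lhcgr did not and were not analysed here. The mean log2 level over the 14 ranged from 7.87 to 7.93 without hCG, from 7.47 to 7.73 at 8 h and from 7.16 to 7.18 at 16 h. At 8 h, 4 of 12 tested markers fell, 1 rose and 7 were not called, and at 16 h against no hCG 6 fell, 2 rose and 4 were not called. Examples with lower means after hCG, which do not stand for the whole list, were the collagen gene Col1a2 and the platelet-derived growth factor receptor gene Pdgfra. Their means in the 3 groups were 9.08, 8.00 and 6.45 for Col1a2, and 7.19, 6.28 and 5.68 for Pdgfra. The marker that rose at 8 h, Cyp11a1, the cholesterol side-chain cleavage enzyme, is also made by granulosa cells. The part of theca or stroma cells in the Cyp17a1 values was not tested.

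Esr2, the gene of the granulosa receptor β, had log2 intensities of 9.47 and 9.55 without hCG, 7.79 and 7.89 at 8 h, and 7.38 and 7.60 at 16 h. Most of the difference lay in the first interval. It was −1.67 ± 0.16 at 8 h (3.18-fold lower) and −0.35 ± 0.16 from 8 h to 16 h (1.28-fold lower), and −2.02 ± 0.16 in total (4.05-fold lower). The later step rested on arrays whose closest pair differed by −0.19. The ID of its 1 probe set ends in _a_at, a kind that can match several transcripts of a gene, so transcript variants of Esr2 cannot be separated here.

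Esr1, the gene of receptor α, had 3 probe sets. The brightest read 9.84 and 10.24 without hCG, 7.76 and 8.22 at 8 h, and 8.76 and 8.94 at 16 h. Unlike the other members, it was lowest at 8 h. At 16 h it stood between its levels without hCG and at 8 h, as Sult1e1 also did. Its differences were −2.05 ± 0.21 at 8 h (4.15-fold lower), 0.86 ± 0.21 from 8 h to 16 h (1.82-fold higher) and −1.19 ± 0.21 in total (2.28-fold lower). The second probe set had the same order, with 7.39 and 7.64, then 6.10 and 5.70, then 6.34 and 6.33, and a difference of −1.61 ± 0.18 at 8 h. The third was below the limit for dim probe sets in all 6 arrays, between 4.62 and 5.17, and its difference at 8 h was −0.41. The later step of Esr1 was therefore 0.86, 0.44 and 0.07 by its 3 probe sets, and its size depends on the probe set read. Marker levels of leukocytes and oviduct epithelium were also higher at 16 h than at 8 h. Those of oviduct epithelium had a lower mean level at 8 h than without hCG too. The part of these cells in the Esr1 values was not tested.

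Both receptor genes were lower at 8 h, and their RefSeq promoter windows are shown for comparison with that of Sult1e1. The Esr1 window is the upstream of 2 in the table, at chr10:4611739-4612038 (plus strand), and that of Esr2 is at chr12:76177210-76177509 (minus strand), both 5′ to 3′ on the gene's strand and in GRCm38.p6.
Esr1: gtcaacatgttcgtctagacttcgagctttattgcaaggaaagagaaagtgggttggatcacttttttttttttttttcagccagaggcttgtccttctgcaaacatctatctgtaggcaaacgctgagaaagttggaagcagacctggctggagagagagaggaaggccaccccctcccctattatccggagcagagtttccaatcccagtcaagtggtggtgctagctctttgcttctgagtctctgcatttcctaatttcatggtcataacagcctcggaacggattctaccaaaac
Esr2: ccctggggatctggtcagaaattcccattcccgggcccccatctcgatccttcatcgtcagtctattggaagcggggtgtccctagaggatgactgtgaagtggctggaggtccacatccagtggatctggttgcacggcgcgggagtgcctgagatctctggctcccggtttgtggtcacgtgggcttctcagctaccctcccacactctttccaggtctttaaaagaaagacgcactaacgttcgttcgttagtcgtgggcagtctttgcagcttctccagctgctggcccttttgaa
Both are in lower case throughout, because none of the 5 searched motifs has a match in them on either strand, nor in the other Esr1 window. The genes lie at chr10:4611989-5005633 and chr12:76120419-76177259. The promoter table held 4 of the 6 members, with 7 windows.

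**Figure D3:**
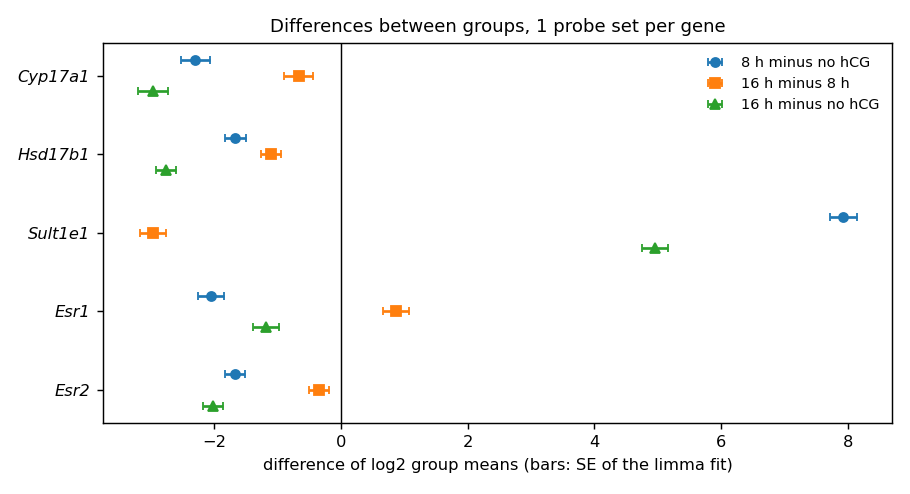
Differences of log2 group means (x axis) for the 1 probe set that stands for each gene, with bars for the SE of the limma fit over 6 arrays. Sult1e1 is to the right of 0 at both times against no hCG (7.93 and 4.96), the other 4 genes are to the left, and from 8 h to 16 h Esr1 is the gene to the right of 0 (0.86).

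For each member, the 3 genes of most like profile among 13554 others were taken by Euclidean distance between log2 profiles over the 6 arrays, each centred on its own mean. The genes nearest to Sult1e1 were Nts, Star and Prkg2, at distances of 0.91, 1.63 and 2.07, with Pearson's r from 0.993 to 0.994. Nts had a difference of 7.73 at 8 h, beside 7.93 for Sult1e1, and −2.26 from 8 h to 16 h, beside −2.97. For Cyp17a1 they were Fam151a, Dbndd1 and Car9, at 0.28, 0.37 and 0.40, and Fam151a also had its widest SD without hCG (0.36). Hsd17b1 lay nearest to Pbk, Timeless and Pole, at 0.32, 0.34 and 0.34. Esr2 lay nearest to Fancd2, Foxo1 and Icam4, at 0.21, 0.23 and 0.24. Esr1 lay nearest to Tmem229b, Akap7 and Gm5065, at 0.22, 0.26 and 0.38, and all 3 shared its low point at 8 h, with differences of 0.73, 0.86 and 0.93 from 8 h to 16 h. These likenesses are descriptions over 6 arrays in 3 groups, in which many genes share a profile.

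**Figure D4:**
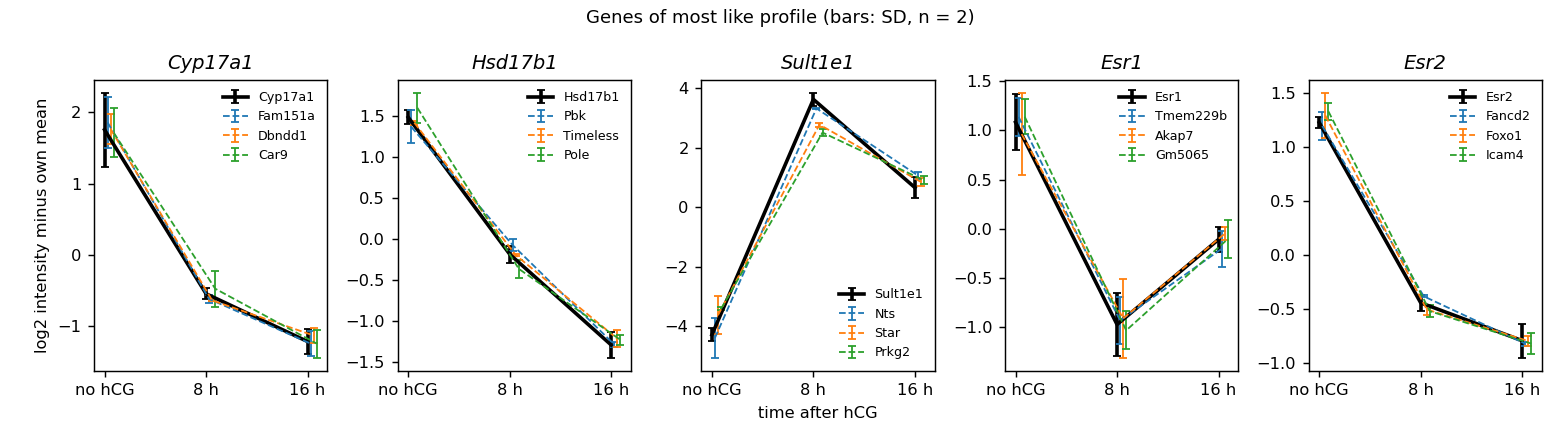
Group means of log2 intensity minus each gene's own mean over 6 arrays (y axis), without hCG, at 8 h and at 16 h, for 5 members (black) and the 3 genes nearest to each (dashed, shifted slightly to the right), with bars for the SD of 2 arrays. Panels have their own y scales. The nearest genes follow the members closely except for Sult1e1, where Star and Prkg2 span a smaller range.

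Other genes of steroid synthesis and metabolism, with electron donors, were read from a list of 16. Of these, 12 had a named probe set and 11 were bright enough to test. Not all of them serve estrogen formation, so counts and medians of this list are not about that alone. At 8 h, 6 of the 11 rose and 2 fell, where 16.9% of all genes were called higher and 20.5% lower, and the median difference was 0.73 beside −0.02 over all 13559 genes. The largest rises were in the steps shared with progesterone synthesis. Star, which carries cholesterol into mitochondria, rose by 6.41 ± 0.26 from 6.71 and 7.62 without hCG to 13.53 and 13.63. The mitochondrial electron carrier gene Fdx1 rose by 2.11 ± 0.18 and the side-chain cleavage gene Cyp11a1 by 1.89 ± 0.21, the latter by 1 of 2 tested probe sets. The falls were in Akr1c14, a 3α-hydroxysteroid dehydrogenase gene (−1.92 ± 0.19), and Hsd3b7, an enzyme gene of bile acid synthesis (−0.62 ± 0.15). Adjusted p-values of these 5 genes ran from 3.8e-07 to 0.0086 by limma. The other genes that rose, named after their values had been seen, were Hsd17b12 (1.16 ± 0.18), Cyb5b (1.03 ± 0.16) and Hsd17b7 (0.73 ± 0.18). Hsd17b7 and Hsd17b12, 17β-hydroxysteroid dehydrogenase genes like Hsd17b1, were also higher at 16 h than without hCG (1.12 ± 0.18 and 1.17 ± 0.18). Hsd17b3 was not called in any comparison. Hsd3b7 was not called once 8 h array 1 or 8 h array 2 was left out (adjusted p = 0.0585 and 0.0717 by limma).

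From 8 h to 16 h, 2 of these 11 genes rose and 2 fell, beside 11.8% and 9.12% of all genes, with a median of 0.00 beside 0.01. Hsd3b7 and Akr1c14 rose by 1.49 ± 0.15 and 1.24 ± 0.19. Star fell (−1.93 ± 0.26), and so did Cyb5a (−1.07 ± 0.15), the cytochrome b5 that assists the androgen-forming step of Cyp17a1. Against no hCG, 7 were higher and 2 lower at 16 h, beside 20.8% and 20.8% of all genes (median 0.87 beside −0.02). Star, Fdx1 and Cyp11a1 were higher by 4.49 ± 0.26, 2.26 ± 0.18 and 2.07 ± 0.21, while Cyb5a was lower (−1.23 ± 0.15). Akr1c14 was lower too (−0.68 ± 0.19, adjusted p = 0.018 by limma), a call lost by leaving out no-hCG array 2 (0.0712), 16 h array 1 (0.0741) or 16 h array 2 (0.104). The dehydrogenase gene Hsd3b1, needed for progesterone and for all steroids beyond it, was not called in any comparison, with means of 13.64, 14.03 and 13.93.

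Genes around Sult1e1, for estrogen inactivation and for the supply of sulfate, were read from a list of 23, of which 19 had a named probe set and 14 were tested. At 8 h, 4 rose and 1 fell, beside 16.9% and 20.5% of all genes (median 0.22 beside −0.02). Hsd17b11, a hydroxysteroid dehydrogenase gene, had log2 intensities of 11.20 and 11.52 without hCG, 14.06 and 14.36 at 8 h, and 11.83 and 11.82 at 16 h. It rose by 2.85 ± 0.18 (adjusted p = 3.18e-06 by limma). The phenol sulfotransferase gene Sult1a1 rose by 1.44 ± 0.17 from a mean of 5.52, below the limit for dim probe sets. Bpnt1, whose product clears the by-product of sulfate transfer, rose by 1.15 ± 0.23 by 1 of its 2 probe sets. The other gene that rose, named after its values had been seen, was Papss2, which makes the sulfate donor, with 10.75 and 10.89 without hCG, 11.97 and 11.95 at 8 h, and 10.44 and 10.39 at 16 h. Hsd17b10, a mitochondrial dehydrogenase gene, fell (−1.29 ± 0.16).

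From 8 h to 16 h, 2 genes of this list rose and 3 fell, beside 11.8% and 9.12% of all genes (median 0.05 beside 0.01). The 3 that fell were Hsd17b11 (−2.39 ± 0.18), Papss2 (−1.55 ± 0.15) and Sult1a1 (−1.28 ± 0.17), with adjusted p-values from 2.7e-05 to 0.000594 by limma. Each had a rise at 8 h, so that their profiles peaked at 8 h, as did that of Sult1e1. Sult1a1, with means of 5.52, 6.96 and 5.68, passed the limit for dim probe sets through its 8 h arrays, so its calls are not independent of that limit. Abcc4, an exporter gene for conjugated steroids, rose by 0.68 ± 0.17 and Hsd17b10 by 0.54 ± 0.16, but without any 1 of the 4 arrays compared neither was called (adjusted p from 0.0885 to 0.148 and from 0.133 to 0.22 by limma). Hsd17b10 was called in 1 of its 2 probe sets.

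At 16 h against no hCG, 3 genes of the list were higher and 2 lower, beside 20.8% and 20.8% of all genes (median 0.20 beside −0.02). The higher ones were Bpnt1 (1.09 ± 0.23), the sulfatase-activating gene Sumf1 (1.08 ± 0.20) and Cyp1b1, an estrogen hydroxylase gene (0.87 ± 0.19). The lower ones were the sulfate transporter gene Slc26a2 (−0.77 ± 0.18) and Hsd17b10 (−0.75 ± 0.16). The calls of Bpnt1, again in 1 of 2 probe sets, and Slc26a2, in 2 of 3, were lost by leaving out 16 h array 1 (adjusted p = 0.0572 and 0.0684 by limma). That of Cyp1b1, in 2 of 3 probe sets, was lost by leaving out 16 h array 2 (0.0629). The hydroxylase genes Cyp1a1 and Cyp1a2, the oxidative dehydrogenase gene Hsd17b2 and the sulfotransferase gene Sult2b1 were too dim to test, with group means between 4.77 and 5.32.

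Receptor partners and related receptors were read from a list of 25, of which 20 had a named probe set and 18 were tested. At 8 h, 4 rose and 3 fell, beside 16.9% and 20.5% of all genes (median −0.06 beside −0.02). From 8 h to 16 h 2 rose and 2 fell, beside 11.8% and 9.12% (0.01 beside 0.01). At 16 h against no hCG 2 were higher and 3 lower, beside 20.8% and 20.8% (0.17 beside −0.02). No response of this list as a whole is read from these counts. The progesterone receptor gene Pgr had log2 intensities of 4.98 and 5.21 without hCG, 8.13 and 7.71 at 8 h, and 5.45 and 5.60 at 16 h. It rose by 2.83 ± 0.19 at 8 h and then fell (−2.40 ± 0.19). All 4 arrays outside the 8 h group were below the limit for dim probe sets, so Pgr was tested only because of its 8 h arrays, and its calls and its place in both lists' counts support nothing by themselves. The acetyltransferase gene Ep300 and the chaperone gene Fkbp5 rose at 8 h by 0.92 ± 0.20 and 0.70 ± 0.16, and neither was called once 8 h array 2 was left out (adjusted p = 0.0553 and 0.0844 by limma).

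The corepressor gene Nrip1 fell at 8 h (−0.61 ± 0.16) and rose by 1.05 ± 0.16 from 8 h to 16 h. Its call at 8 h was lost by leaving out no-hCG array 2 (adjusted p = 0.0614 by limma) or 8 h array 1 (0.148), and of its 5 tested probe sets 3 were called at 8 h and 2 from 8 h to 16 h. The coactivator gene Ncoa3 and the helicase gene Ddx17 had small falls at 8 h (−0.52 ± 0.15 and −0.53 ± 0.17), each in 1 of its tested probe sets. Both calls were lost by leaving out either 8 h array (adjusted p from 0.0626 to 0.265 by limma), that of Ncoa3 also by leaving out no-hCG array 1 (0.0758), and that of Ddx17 also by leaving out no-hCG array 2 (0.132) or either 16 h array (0.0616 each). With the mean of a gene's probe sets, the 8 h calls of Ncoa3 and Ddx17 were lost as well (adjusted p = 0.0631 and 0.0817 by limma). That of Ddx17 was also lost when probe sets prone to cross-hybridisation were dropped (0.443). From 8 h to 16 h Ddx17 rose by 0.61 ± 0.17 and the chaperone gene Fkbp4 fell (−0.73 ± 0.16). The Ddx17 call was lost by leaving out any 1 of the 4 arrays compared (adjusted p from 0.0663 to 0.27 by limma), and the Fkbp4 call by leaving out either 8 h array (0.12 and 0.0525) or 16 h array 2 (0.0973). Both were also lost with the mean of a gene's probe sets (0.189 and 0.094) and when probe sets prone to cross-hybridisation were dropped (0.799 and 0.462), where the sign of Ddx17 turned.

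At 16 h against no hCG the orphan receptor gene Esrra and Fkbp5 were higher by 1.02 ± 0.19 and 1.00 ± 0.16, and Fkbp4 was lower (−0.93 ± 0.16). The methyltransferase gene Carm1 and Ncoa3 had differences of −0.54 ± 0.16 and −0.48 ± 0.15, calls that were lost by leaving out no-hCG array 1 (adjusted p = 0.124 and 0.0938 by limma), either 8 h array (0.0501 and 0.0651), 16 h array 1 (0.0779 and 0.0615) or 16 h array 2 (0.135 and 0.151). The Ncoa3 call was also lost with the mean of its probe sets (adjusted p = 0.0545 by limma). The coactivator genes Ncoa1 and Ncoa2 and the acetyltransferase gene Crebbp were not called in any comparison. Gper1, a membrane receptor for estrogen, and the orphan receptor gene Esrrg were too dim to test. Gper1 had means of 5.73, 5.24 and 5.26, and Esrrg of 6.36, 4.62 and 4.53.

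Genes known to respond to estrogen in other tissues or in granulosa cells were read from a list of 30, of which 27 had a named probe set and 26 were tested. Pgr and Nrip1 are on this list and on that of receptor partners. Both directions were present at each step. At 8 h, 4 rose and 7 fell, beside 16.9% and 20.5% of all genes (median −0.09 beside −0.02). The rises were led by Pgr, the transcriptional cofactor gene Cited1 (2.52 ± 0.19) and the IGF-binding gene Igfbp4 (1.91 ± 0.17). The falls were led by the hedgehog ligand gene Ihh (−4.43 ± 0.17), the inhibin βB subunit gene Inhbb (−2.54 ± 0.20) and the growth factor gene Igf1 (−1.79 ± 0.17). Adjusted p-values of these 6 genes ran from 3.58e-07 to 3.55e-05 by limma, and 5 of 6 tested Igfbp4 probe sets were called.

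From 8 h to 16 h, 10 genes of this list rose and 5 fell, beside 11.8% and 9.12% of all genes (median 0.31 beside 0.01). The matricellular gene Ccn5 rose by 3.34 ± 0.18, the oxytocin receptor gene Oxtr by 1.74 ± 0.21 and the transcription factor gene Myc by 1.39 ± 0.17. Cited1 (−3.21 ± 0.19), Pgr and Inhbb (−1.42 ± 0.20, in 1 of 2 probe sets) fell most. At 16 h against no hCG, 9 were higher and 6 lower, beside 20.8% and 20.8% of all genes (median 0.37 beside −0.02). Ccn5, Igfbp4 and Oxtr were higher by 3.58 ± 0.18, 3.09 ± 0.17 and 2.04 ± 0.21. Ihh, Inhbb and Igf1 were lower (−4.57 ± 0.17, −3.96 ± 0.20 and −2.63 ± 0.17). Greb1, an estrogen-induced gene in many tissues, was named after its values had been seen: it fell at 8 h (−0.85 ± 0.15), rose by 0.82 ± 0.15 after it, and its 16 h mean of 12.88 was beside 12.92 without hCG. These values are of its brightest probe set, and 2 of its 4 probe sets were still called lower at 16 h than without hCG.

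Regulators of aromatase in granulosa cells were read from a list of 25, of which 23 had a named probe set and all 23 were tested. At 8 h, 3 rose and 9 fell, beside 16.9% and 20.5% of all genes (median −0.36 beside −0.02). The transcription factor genes Runx1, Crem and Cebpb rose by 3.52 ± 0.23, 2.87 ± 0.15 and 1.93 ± 0.16. Foxl2, a transcription factor gene of granulosa identity, fell (−1.89 ± 0.20), as did the activin βA subunit gene Inhba (−1.86 ± 0.21) and the forkhead gene Foxo1 (−1.80 ± 0.16). Probe sets disagreed for Runx1 (5 of 6 called), Inhba (1 of 2) and Foxo1 (3 of 4). Steroidogenic factor gene Nr5a1, named after its values had been seen, fell (−0.65 ± 0.17). Its relative Nr5a2 was not called by its brightest probe set (−0.45 ± 0.17), while 1 of its 3 tested probe sets was called lower.

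From 8 h to 16 h, 1 gene of this list rose and 5 fell, beside 11.8% and 9.12% of all genes (median −0.12 beside 0.01). The FSH receptor gene Fshr fell (−2.36 ± 0.15), followed by the corepressor gene Nr0b1 (−1.35 ± 0.25) and Gata6 (−1.09 ± 0.17). Irs1, an insulin receptor substrate gene, rose by 0.78 ± 0.16. The call of Nr0b1 was lost by leaving out 16 h array 1 or 2 (adjusted p = 0.062 and 0.0569 by limma), and that of Irs1 by leaving out 8 h array 1 or 2 (0.0542 and 0.0702) or 16 h array 2 (0.0736). At 16 h against no hCG, 4 were higher and 10 lower, beside 20.8% and 20.8% of all genes (median −0.37 beside −0.02). Runx1, Crem and Cebpb were higher by 2.55 ± 0.23, 2.04 ± 0.15 and 1.66 ± 0.16, and Fshr, Nr0b1 and Foxl2 were lower (−3.54 ± 0.15, −2.71 ± 0.25 and −2.14 ± 0.20).

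**Figure D5:**
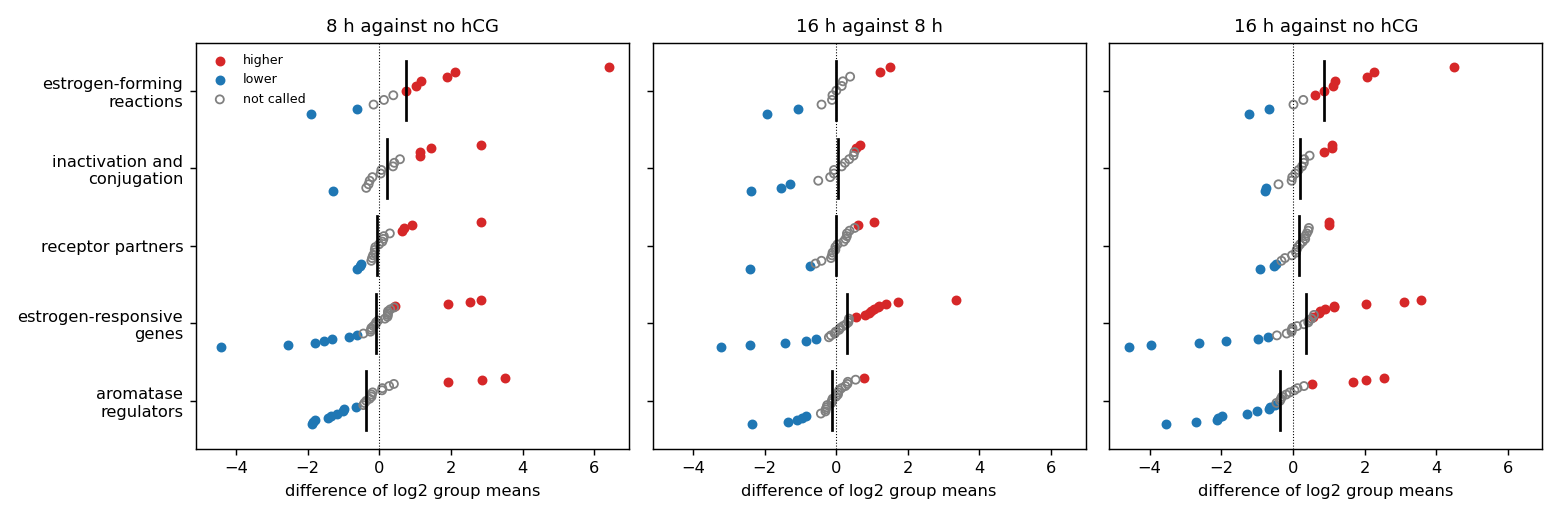
Differences of log2 group means (x axis) of every tested gene on the 5 lists, in 3 panels by comparison, with filled points for genes called by limma at an adjusted p under 0.05, open points for genes not called and a black bar for each list's median. Medians at 8 h lie at 0.73 for the list labelled estrogen-forming reactions and at −0.36 for the regulators of aromatase. The former also holds genes of other steroid steps.

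Over the 5 lists together, 90 genes were tested. At 8 h 20 rose and 21 fell, beside 16.9% and 20.5% of all genes, from 8 h to 16 h 16 rose and 16 fell, beside 11.8% and 9.12%, and at 16 h against no hCG 25 were higher and 23 lower, beside 20.8% and 20.8%. The comparisons share arrays, so counts of one are not independent of another.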

How the data were processed

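The authors deposited log2 intensities for 6 arrays hybridised with biotin-labelled cRNA of pooled cumulus-oocyte complexes, and that they are on a log2 scale was judged from their range, 3.32 to 15.5. Software, background correction and normalization are not given in the sources used here, and values were used as deposited. Groups and replicate numbers came from the titles. Of 45101 probe sets, 64 controls were left out. Probe sets were named by the platform annotation (34945 probe sets with 1 symbol, 932 with several, 9160 with none). A gene with several probe sets was represented by the one with the highest mean. Probe sets with a mean under the 40th percentile were not tested, which left 27022.

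One model of the 3 groups over the 6 arrays was run in limma 3.58.1 under R 4.3.3 (lmFit, then eBayes). Tests were two-sided, with Benjamini-Hochberg adjustment over the 27022 probe sets. The fit was tested on simulated data.

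The members and lists were chosen with earlier results of these data known. From each list and comparison, up to 3 called genes with the largest rises and up to 3 with the largest falls are named, with all members. Any other gene on a list that is named was chosen after its values were seen. Promoter windows are RefSeq's (GRCm38.p6). Alternatives were other dim filters, quantile and median scaling, the mean of a gene's probe sets, no probe sets prone to cross-hybridisation, only the compared groups, each array left out and the replicate number as a block.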

Additional observations from a re-analysis of the deposited data

How the results depend on the processing

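All 93 alternative values of the 5 measured members kept the direction of the value reported, and 81 moved by less than the SD between replicates. Since arrays of these members did not overlap between groups, leaving out 1 array could not turn a direction. The SD also comes from the same arrays, so these counts are no independent support. With the mean of its 3 probe sets, Esr1 had differences of −1.36 at 8 h, 0.46 from 8 h to 16 h and −0.90 in total. Quantile normalization gave Hsd17b1 −2.89 at 16 h against no hCG. Leaving out 1 array in turn gave Cyp17a1 −2.66 to −1.93 at 8 h and −3.33 to −2.60 at 16 h against no hCG, where both bounds of each come from the arrays without hCG. For Esr2 it gave −0.46 to −0.24 from 8 h to 16 h and −2.13 to −1.91 in total.

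The count of called probe sets was 9167 at 8 h, 4922 from 8 h to 16 h and 10072 in total. With 1 array left out it ran from 6109 (without replicate 2 of the 8 h group) to 9450 and from 2518 (without replicate 1 of the 8 h group) to 6340. It was 2819 without replicate 2 of the 8 h group, and 2648 and 2784 without replicate 1 and 2 of the 16 h group. Deviations of arrays with the same number correlated at 0.38 between no hCG and 8 h, −0.06 between no hCG and 16 h and 0.11 between 8 h and 16 h. Since not all were over 0.1 the numbers were not taken to pair the arrays. A shared effect in the no-hCG and 8 h arrays was not tested beyond the replicate block. With that block the count of called probe sets was 10117, 5812 and 11045, and the lists' called genes were 45, 37 and 50 in place of 41, 32 and 48. Of 77 calls named by rule, 59 held under every alternative that gave a value, and 1, that of Ddx17 from 8 h to 16 h, turned its sign under 1. A lone array was taken to vary like the other groups. No detection calls were used, so low values limit the size of a fold change.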
